A study of Mus musculus with 8 samples.

Results

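Heat shock proteins and J-domain chaperones are the proteins that help other proteins to fold, keep them from clumping and hand damaged ones on for degradation. Their genes were taken as all rows of the deposited table whose symbol begins with Hspa, Hspb, Hspd, Hspe or Hsp followed by a digit, is Hsph1, or begins with Dnaja, Dnajb or Dnajc followed by a number. This gave 74 of the 23282 rows, of which 61 had enough counts to be tested. The rule uses names alone, so that no measured value chose the genes.

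Liver RNA of C57BL/6 mice was sequenced in 3 groups. The control group was injected with saline, and the endotoxemic group with 25 mg/kg of LPS, the bacterial lipopolysaccharide that sets off a systemic inflammatory response. Per the study's account of its RNA-seq groups, the LGK974 group was given 60 mg/kg of LGK974 and 25 mg/kg of LPS. Its labels name LGK974 alone. LGK974 inhibits Porcupine, the enzyme that lipidates Wnt proteins so that they can be secreted. All mice were stated to be males 4 weeks of age, livers were taken 6 h after LPS, and in most experiments of the study LGK974 preceded LPS by 2 h. No group received LGK974 without LPS, so that the effect of the inhibitor alone was not measured.

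Chaperones work in families that sit in different parts of the cell. Hsp70 proteins bind exposed stretches of unfolded proteins in a cycle of ATP hydrolysis. J-domain proteins bring them their substrates and start the hydrolysis, and nucleotide exchange factors such as the Hsp110 proteins end the cycle. Hsp90 proteins act later, on partly folded clients such as kinases and steroid receptors, and small heat shock proteins hold unfolded proteins without ATP. The endoplasmic reticulum (ER) and the mitochondria each have their own set. In the cytosol, the transcription factor HSF1 raises chaperone genes when unfolded proteins build up. In the ER, the unfolded protein response does so through ATF6, XBP1 and ATF4, and hepatocytes, which secrete most plasma proteins, have a large ER.

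Some promoters of these genes hold the sequence elements by which both systems are known, and the stretches with a match are shown, together with those of the stress-inducible Hsp70 genes, whether or not the gene changed here. Windows from 250 bases before to 50 bases after the RefSeq start (GRCm38.p6) were found for 60 of the 74 genes, and both strands were searched. The ER stress response element, CCAAT followed after any 9 bases by CCACG, was in the windows of 37 of 27025 genes (0.137%). Among the chaperone genes it was in those of Hspa5, Hsp90b1 and Dnajc3, all of which act in the ER. A related element, ATTGG followed after any 1 base by CCACG, was in the windows of 12 genes (0.0444%), including that of the ER J-domain gene Dnajb11. The first element contains CCAAT, which alone was in the windows of 41.1% of genes and of 25 of the 60 chaperone genes. In the sequences, given from 5′ to 3′ on the strand of the gene, capitals mark the element. Positions count from the RefSeq start as 1.

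Hspa5, chr2:34772020-34772049, plus strand, −70 to −41: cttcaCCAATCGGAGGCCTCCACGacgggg
Hsp90b1, chr10:86705525-86705664, minus strand, −220 to −81, with 2 matches: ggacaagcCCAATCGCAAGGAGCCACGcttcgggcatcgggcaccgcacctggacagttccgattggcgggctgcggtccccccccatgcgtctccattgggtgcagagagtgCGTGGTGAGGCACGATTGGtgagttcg
Dnajc3, chr14:118937812-118937931, plus strand, −120 to −1: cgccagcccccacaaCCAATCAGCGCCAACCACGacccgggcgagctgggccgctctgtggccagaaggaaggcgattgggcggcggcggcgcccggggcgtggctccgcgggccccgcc
Dnajb11, chr16:22857852-22857862, plus strand, 8 to 18: ATTGGCCCACG

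The heat shock element to which HSF1 binds is made of repeated GAA units in alternating orientation. Its form with 3 units, GAANNTTC followed after any 2 bases by GAA, was in the windows of 179 of 27025 genes (0.662%) and of 4 chaperone genes, which were Dnajb6, Hsph1, Hspd1 and Hspe1. The last 2 lie head to head on chromosome 1 and share the same stretch of DNA. The shorter form GAANNTTC, which lies inside the longer one, was in the windows of 9.04% of genes and of 14 of the 60 chaperone genes. Neither form was in the windows found for 11 ER chaperone genes. Hspa1a and Hspa1b, the stress-inducible Hsp70 genes, are neighbours on chromosome 17, and their windows shared 296 of 300 bases. A match is a description of the letters in this window and was not tested as a binding site.

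Hspe1, chr1:55088054-55088083, plus strand, −94 to −65, with 2 overlapping matches: gtccgTTCTAGAACCTTCCGGAAggccccg
Hsph1, chr5:149636288-149636300, minus strand, 37 to 49: TTCTGGAAAGTTC
Dnajb6, chr5:29735852-29735864, plus strand, −46 to −34: GAATCTTCCGGAA
Hspa1a, chr17:34972217-34972276, minus strand, −120 to −61, and Hspa1b, chr17:34959299-34959358, minus strand, −120 to −61, the same letters in both: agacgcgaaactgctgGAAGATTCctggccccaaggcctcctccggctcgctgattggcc

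Of 8 libraries deposited, endotoxemic libraries 3 and 4 held the same count as libraries 1 and 2 on every row and were not counted again, which left 2 distinct libraries in each group. The labels do not say whether these came from separate mice, so that p-values measure the spread between the libraries, which may be technical. Total counts were 9142116 to 15222439 per library, where 3 counts, taken as the smallest signal that can be shown, equal 0.196 to 0.327 CPM (counts scaled to a common library total). This floor covers counting error only. No chaperone symbol was out of place along the chromosomes, although 526 of the 23055 rows with a known position were, and Hspb2 stood beside its genomic neighbour Cryab. The row below Dnajb3, Dnajc8 and Dnajb6 carried the symbol of a gene of another chromosome (Slc7a2, Il13 and Tnfrsf25), whereas the row above each was in order. Xist, which is transcribed from the silenced X of females, had 1171 to 3115 counts in the control and endotoxemic libraries and 3 and 7 with LGK974. The Y-linked gene Ddx3y was at 0 in every control and endotoxemic library and had 1755 and 1392 with LGK974. The libraries labelled control and endotoxemic thus go against the stated sex, and in every comparison with the LGK974 group a difference by sex and one by LGK974 cannot be told apart.

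Markers of liver cell types moved with the groups as well. The summed CPM of the hepatocyte markers on rows in order, 5 of 6, was 74757 to 106849 in the control group, 31401 to 47797 in the endotoxemic group and 33371 to 35536 in the LGK974 group. The monocyte markers in order, 3 of 5, summed to 18.01 to 20.13, 226.6 to 245.4 and 170.2 to 180.9 CPM, and the neutrophil markers in order, 2 of 5, to 1.763 to 2.157, 54.34 to 69.82 and 32.61 to 33.77 CPM, in the same order of groups. The 6 erythroid markers summed to 2743 to 2965, 6570 to 7706 and 2714 to 4172 CPM. The 6 sinusoidal endothelial markers summed to 253 to 255.1, 405.9 to 409 and 440.5 to 560.9 CPM, although 3 of them fell and 1 rose after LPS, and the 6 stellate markers to 430.9 to 439.5, 527.2 to 571.4 and 447.3 to 534.3 CPM, although 4 fell and 1 rose. The 6 cholangiocyte markers summed to 20.6 to 23.79, 9.167 to 9.929 and 15.02 to 21.93 CPM, and the 6 B cell markers to 2.876 to 5.105, 3.164 to 5.116 and 0.151 to 0.6767 CPM. The Kupffer cell markers in order, 5 of 6, summed to 95.51 to 100.6, 117.1 to 138.4 and 85.45 to 119.2 CPM, although 2 of them fell and 1 rose after LPS. The 6 T or NK cell markers summed to 2.876 to 5.105, 2.073 to 3.944 and 1.218 to 1.736 CPM. Apart from 1 B cell and 1 T or NK cell marker, none of the markers summed was at 0 in every library, and their part in the chaperone results was not tested. In whole liver, fewer cells of a type and less RNA per cell cannot be told apart.

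The first comparison asks how the chaperone genes stood in livers 6 h after LPS. LPS-injected mice had higher levels of 7 ER chaperones than saline-injected mice, among them the ER Hsp70 Hspa5, and of the cytosolic Hsp90 Hsp90aa1. The mitochondrial chaperonin Hspd1, the small heat shock protein Hspb6 and the J-domain genes Dnajb4 and Dnaja1 were lower. By edgeR's quasi-likelihood test with an adjusted p below 0.05, 15 of the 61 tested genes were higher (24.6%), where 20.4% of the 12701 rows tested were. By the same test 5 were lower (8.2%), against 23% of all rows. The first count was 7 without control library 1 and 9 without endotoxemic library 2, and the second was 2 without any single control or endotoxemic library and 9 without either LGK974 library. The 61 genes had a median log2 fold change of 0.29, against 0.01 for all rows, and ranged from −2.27 to 2.69. In either direction 20 genes were called, where 43.4% of all rows were. In each of the 20 the CPM of the 2 groups did not overlap. With 2 libraries a group this also held for genes not called, such as Hspa8 and Hspb8 (edgeR adjusted p = 0.277 and 0.299). All CPM are adjusted by TMM, and because the method reads the 3′ end of each transcript they do not grow with gene length. Pairs of CPM are those of libraries 1 and 2, after saline for the control group, after LPS for the endotoxemic group and with LGK974 for the LGK974 group.

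**Figure D1:**
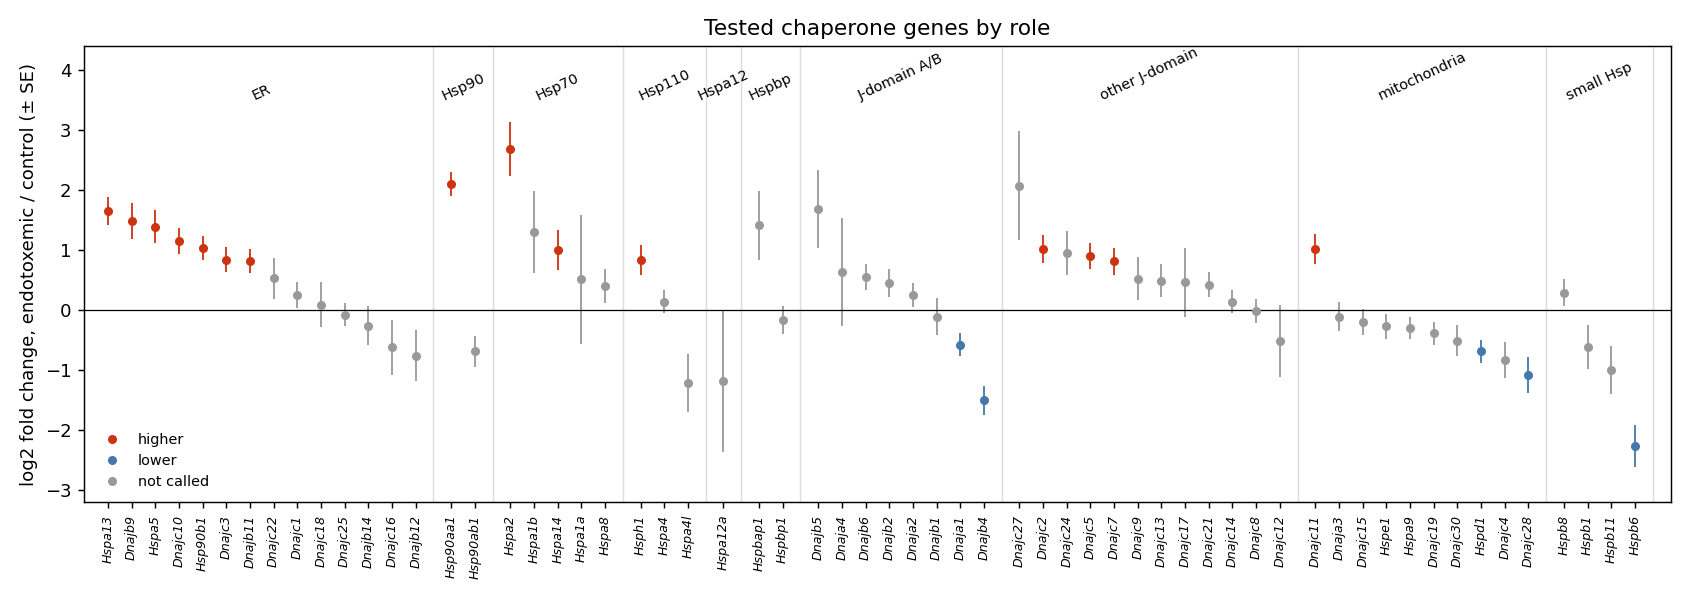
Log2 fold change between the endotoxemic and control groups (y axis) for each of the 61 tested chaperone genes (x axis), ordered by role, where points are estimates from 2 libraries a group and bars are ± SE. Red points were called higher and blue points lower at an adjusted p below 0.05. In the ER set 7 genes are red and 0 blue, whereas the mitochondrial set holds 1 red and 2 blue.

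Of the 14 tested genes assigned to the ER, 7 rose and 0 fell, where 20.4% and 23% of all rows did. An unadjusted p below 0.05 was found for 7, and DESeq2 also called 7 higher and 0 lower. The set was assigned with earlier results of these data known, and its count is a description. Hspa5, also called BiP, is the Hsp70 of the ER lumen and holds the stress sensors of the ER inactive (chromosome 2, 34771970 to 34777547). It had 1483 and 1121 CPM after saline, 3879 and 2965 after LPS and 3336 and 2014 with LGK974. Both endotoxemic values lie above both control values, and the log2 fold change was 1.39 (2.63-fold, SE 0.28, adjusted p = 0.00383 in edgeR). Hsp90b1, or GRP94, is the Hsp90 of the ER (chromosome 10, 86690209 to 86705509). It had 959.1 and 916.4 CPM after saline, 2152 and 1687 after LPS and 1084 and 1281 with LGK974. Its rise was 2.05-fold (log2 fold change 1.03, SE 0.2, adjusted p = 0.00338 in edgeR), with the LGK974 values between those of the other groups.

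The less abundant Hsp70 of the ER, Hspa13, which lacks the domain that binds substrates, rose most in this set. Its CPM were 18.84 and 26.27 after saline and 61.76 and 80.58 after LPS (3.15-fold, log2 fold change 1.65, SE 0.24, adjusted p = 0.000655 in edgeR). The remaining 4 genes that rose are J-domain partners of Hspa5. Dnajb9, or ERdj4, which is known to bring Hspa5 to the stress sensor IRE1, had 12.62 and 20.13 CPM after saline and 43.1 and 48.82 after LPS (2.79-fold, adjusted p = 0.00359 in edgeR). Dnajc10, or ERdj5, a disulfide reductase that acts in ER-associated degradation, had 21.25 and 16.54 and then 40.92 and 42.64 CPM (2.22-fold, adjusted p = 0.00216 in edgeR). Dnajc3, or P58IPK, was the J-domain gene with the highest level, at 315.7 and 331.8 CPM after saline and 545.9 and 609.8 after LPS (1.78-fold, adjusted p = 0.0117 in edgeR). Dnajb11, or ERdj3, rose from 36.1 and 39.87 to 60.78 and 72.59 CPM (1.75-fold, adjusted p = 0.0102 in edgeR).

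The other 7 genes of the ER set were Dnajc1, Dnajc25, Dnajc22, Dnajc18, Dnajb14, Dnajb12 and Dnajc16. Their log2 fold changes ranged from −0.76 (Dnajb12) to 0.53 (Dnajc22), and none passed the test (edgeR, 0 at an unadjusted p below 0.05, and 0 by DESeq2). Dnajb12 and Dnajb14 are anchored in the ER membrane with the J-domain facing the cytosol, so that they serve cytosolic Hsp70. Summed over the ER set, the level was 2998 and 2661 CPM after saline, 6955 and 5693 after LPS and 5128 and 4157 with LGK974. Leaving out any single library left Hspa5, Hsp90b1, Hspa13, Dnajb9 and Dnajc10 past the threshold. Dnajc3 and Dnajb11 were lost without endotoxemic library 2 (edgeR adjusted p = 0.0864 and 0.0974), without control library 1 (0.0998 and 0.0977) and without control library 2 (0.0743 and 0.0549).

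**Figure D2:**
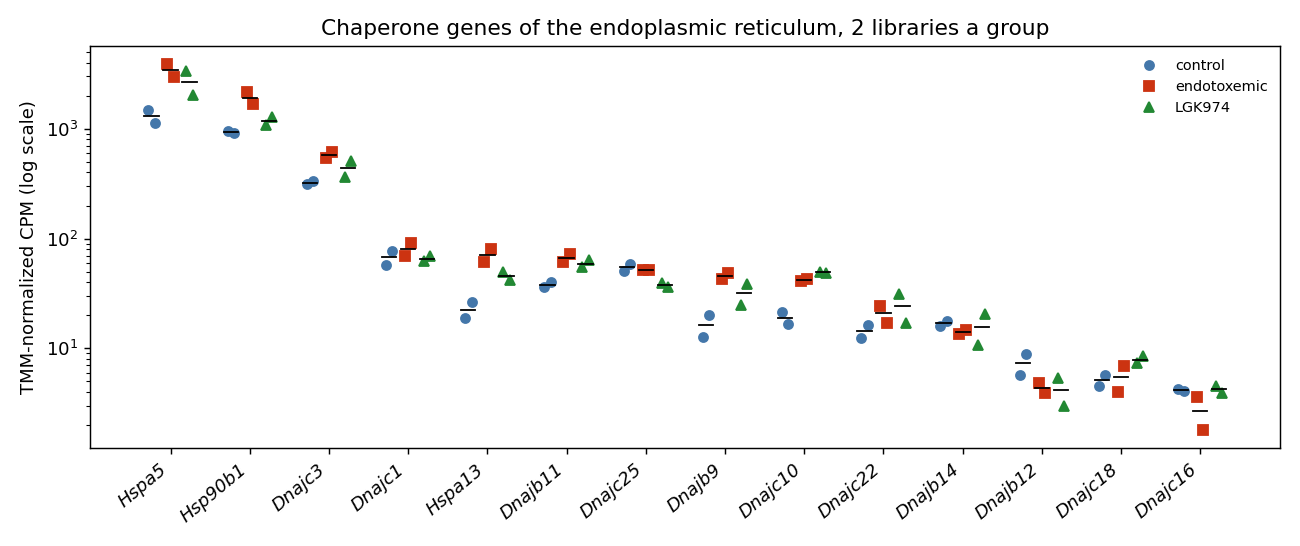
TMM-normalized CPM on a log scale (y axis) of the 14 tested ER chaperone genes (x axis) in each library, with circles for the control group, squares for the endotoxemic group, triangles for the LGK974 group and a black line at the mean of the 2 libraries. The endotoxemic squares lie above the control circles in Hspa5, Hsp90b1, Dnajc3, Hspa13, Dnajb11, Dnajb9 and Dnajc10, and by a small margin in Dnajc22, which was not called.

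Among genes known to work with these chaperones, a list of 21 tested ER stress regulators and folding factors had 10 genes that rose and 2 that fell in the endotoxemic group, where 20.4% and 23% of all rows did, with a median log2 fold change of 0.53. The largest rises were those of Creld2 (log2 fold change 3.13, SE 0.23, adjusted p = 1.15e-05 in edgeR) and Manf (2.55, SE 0.32, adjusted p = 0.000246 in edgeR), proteins of the ER that ER stress is known to induce and that can be secreted. The 2 that fell were Herpud1 (−1.9), a factor of ER-associated degradation that ER stress is known to raise, and Sil1 (−0.77), the nucleotide exchange factor of Hspa5. This list was written with earlier results of these data known, and its count is a description.

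Of the 2 Hsp90 genes of the cytosol, Hsp90aa1 rose after LPS. Hsp90aa1, the inducible form (chromosome 12, 110690605 to 110702728), had 161.2 and 164.9 CPM after saline, 663.6 and 737 after LPS and 545.7 and 433.4 with LGK974. The rise was 4.29-fold in the endotoxemic group (log2 fold change 2.1, SE 0.2, adjusted p = 5.46e-05 in edgeR), the smallest adjusted p of the 61 genes in this comparison, and the groups lie far apart. Hsp90ab1, the constitutive form (chromosome 17, 45567775 to 45573271), had 1687 and 1457 CPM after saline, 1014 and 939.7 after LPS and 702.4 and 1201 with LGK974. Its log2 fold change of −0.69 (SE 0.26) did not pass the test (adjusted p = 0.0582 in edgeR), although both endotoxemic values lie below both control values. DESeq2 called it lower (adjusted p = 0.0462), as did edgeR with no filter on low counts (0.0172) with only the 2 groups compared (0.00195) and without LGK974 library 1 (0.000872) or 2 (0.00106). The ratio of Hsp90aa1 to Hsp90ab1 CPM was 0.0955 and 0.113 after saline, 0.654 and 0.784 after LPS and 0.777 and 0.361 with LGK974. The sum of both genes was 1848 and 1622 CPM after saline, 1678 and 1677 after LPS and 1248 and 1634 with LGK974.

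The stress-inducible Hsp70 genes had few counts in every library. The last exon of Hspa1a overlaps an exon of Gm20481 on the opposite strand. Hspa1a had 10 and 6 counts after saline, 10 and 7 after LPS and 1 and 19 with LGK974. Hspa1b had 15 and 22, 27 and 38, and 8 and 36 counts, in the same order. Neither passed the test between LPS and saline (edgeR adjusted p = 0.731 and 0.152), and the SE of the log2 fold changes were 1.08 and 0.68. The 2 groups overlapped for Hspa1a and not for Hspa1b, whose log2 fold change was 1.3. Hspa1b was called higher with only the 2 groups compared (log2 fold change 1.33, edgeR adjusted p = 0.0412) and with the identical libraries kept apart (0.0478). Because their transcripts are nearly identical and reads could be split between them, the counts were also summed, a choice made after seeing the data. The sum had a log2 fold change of 1.09 (SE 0.69, adjusted p = 0.229 in edgeR). Hspa8, the constitutive cytosolic Hsp70, had 205.3 and 219.4 CPM after saline and 251.6 and 309.3 after LPS (log2 fold change 0.4, SE 0.28, adjusted p = 0.277 in edgeR), and its LGK974 values of 274.5 and 147.3 lie on both sides of the control values. Hspa8 was called higher after LPS with only the 2 groups compared (adjusted p = 0.0306) and without LGK974 library 1 (0.0414) or 2 (0.0409).

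The cytosolic Hsp70 genes that rose were Hspa2 and Hspa14. Hspa2, best known from the testis, had 1.485 and 3.137 CPM after saline and 10.69 and 19.83 after LPS. This 6.44-fold rise (log2 fold change 2.69, SE 0.45, adjusted p = 0.00139 in edgeR) was the largest fold among the genes called, from a low level. Its log2 fold change was 2.18 without endotoxemic library 2 and 3.36 without control library 2, and it was called in both fits. Hspa14 had 16.15 and 12.29 CPM after saline and 35.57 and 21.21 after LPS (log2 fold change 1, SE 0.34, adjusted p = 0.0385 in edgeR), and it was not called without endotoxemic library 1 (0.26), control library 1 (0.0869) or control library 2 (0.205). Dnajc2, the J-domain protein with which Hspa14 forms the ribosome-associated complex that meets new chains as they leave the ribosome, had 26.82 and 32.87 CPM after saline and 54.01 and 67.05 after LPS. Its log2 fold change was 1.02 (SE 0.23, adjusted p = 0.00614 in edgeR).

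Of the Hsp110 exchange factors, Hsph1, a known HSF1 target, rose from 22 and 26.34 CPM after saline to 37.21 and 48.93 after LPS. Its log2 fold change was 0.83 (SE 0.25, adjusted p = 0.0251 in edgeR), and the call was lost without endotoxemic library 2 (0.189), control library 1 (0.171) or control library 2 (0.0743). Hspa4 had 147.5 and 134.7 CPM after saline and 163.5 and 146.6 after LPS, values that overlap. Hspa4l had 12.34 and 7.32 and then 4.91 and 3.518 CPM (adjusted p = 0.0697 in edgeR).

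Among the 8 tested J-domain genes of classes A and B in the cytosol and nucleus, 2 fell and 0 rose (edgeR, 4 at an unadjusted p below 0.05, 1 higher and 2 lower by DESeq2), a share of falls near the 23% of all rows. Dnajb4 had 22.18 and 24.51 CPM after saline and 8.947 and 7.568 after LPS (log2 fold change −1.5, SE 0.24, adjusted p = 0.00113 in edgeR). Dnaja1, a main partner of Hspa8, had 181.3 and 183.7 CPM and then 119.3 and 125.4 (log2 fold change −0.58, SE 0.19, adjusted p = 0.034 in edgeR). Its last exon overlaps an exon of Smu1 on the opposite strand, so that reads of the 2 genes may not be told apart. The call of Dnaja1 was lost when any single control or endotoxemic library was left out (log2 fold change −0.61 to −0.48). It was also lost with no filter on low counts (edgeR adjusted p = 0.0682) and under upper-quartile normalization (0.0515). Dnajb1, or Hsp40, a J-domain protein that heat shock is known to induce, had 20.98 and 13.27 CPM after saline, 17.79 and 13.75 after LPS and 18.04 and 13.4 with LGK974. All 3 groups overlap, and its log2 fold change in the endotoxemic group was −0.11 (SE 0.31, adjusted p = 0.788 in edgeR).

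**Figure D3:**
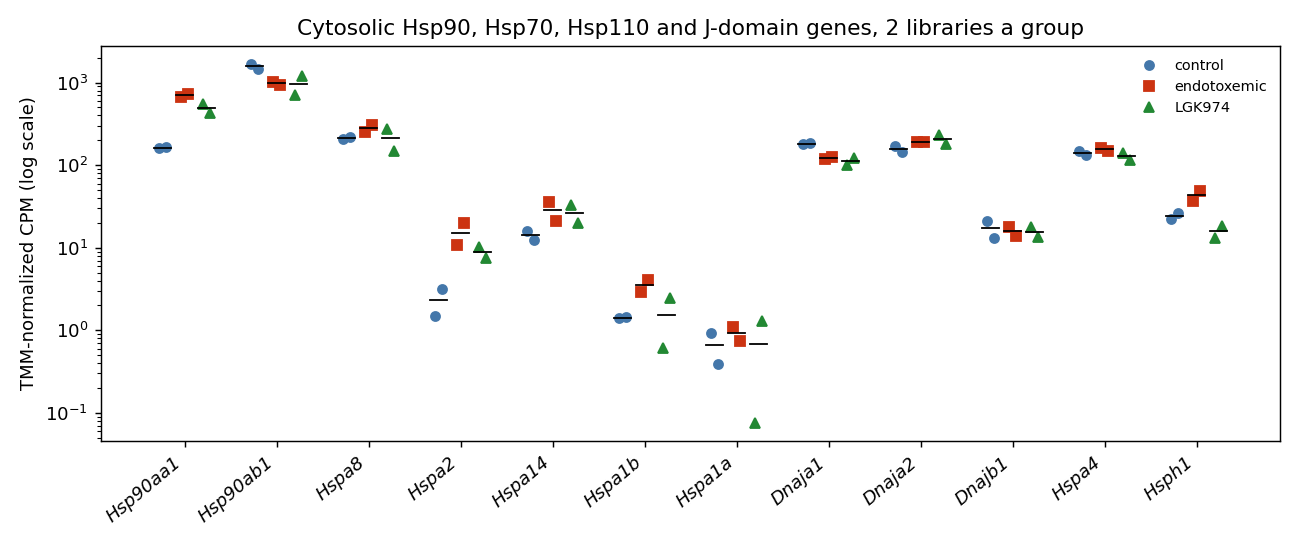
TMM-normalized CPM on a log scale (y axis) of 12 cytosolic Hsp90, Hsp70, Hsp110 and J-domain genes (x axis) in each library, with circles for the control group, squares for the endotoxemic group, triangles for the LGK974 group and a black line at the mean of the 2 libraries. The squares of Hsp90aa1 lie above its circles and those of Hsp90ab1 below, whereas Dnajb1 overlaps in all 3 groups.

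Of the 12 other J-domain genes tested, 3 rose and 0 fell (edgeR, 5 at an unadjusted p below 0.05, 3 higher and 0 lower by DESeq2), a share of rises near the 20.4% of all rows. Beside Dnajc2, these were Dnajc5, the cysteine string protein of secretory vesicles, with a log2 fold change of 0.9 (adjusted p = 0.00713 in edgeR), and Dnajc7, which links Hsp70 to Hsp90, with one of 0.81 (adjusted p = 0.0144 in edgeR). Without control library 1, Dnajc2, Dnajc5 and Dnajc7 were not called (edgeR adjusted p = 0.0727, 0.0719 and 0.139). Dnajc2 was also lost without endotoxemic library 2 (0.0638), and Dnajc7 without endotoxemic library 1 (0.0652) or 2 (0.066).

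Of the 4 tested small heat shock genes, Hspb6 fell and 0 rose (edgeR, 2 at an unadjusted p below 0.05, 0 higher and 1 lower by DESeq2), a share of falls near the 23% of all rows. Hspb6, or Hsp20, known best from muscle (chromosome 7, 30552178 to 30555443), had 21.35 and 18.76 CPM after saline, 3.928 and 4.37 after LPS and 9.813 and 17.93 with LGK974. It was 4.82-fold lower in the endotoxemic group (log2 fold change −2.27, SE 0.35, adjusted p = 0.000829 in edgeR), the largest fall among the chaperone genes called. Its last exon overlaps an exon of Lin37 on the opposite strand. Hspb1, or Hsp27, which stabilises actin filaments, had 41.02 and 26.21 CPM after saline, 27.5 and 16.2 after LPS and 13.21 and 24.97 with LGK974. The endotoxemic values overlap those of both other groups, and both control values lie above both LGK974 values. Hspb8, which works with Bag3 in the autophagy of misfolded proteins, was the most abundant of them, at 393.4 and 326.4 CPM after saline and 457.4 and 425.2 after LPS (adjusted p = 0.299 in edgeR).

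In the mitochondria, 2 of 10 tested genes fell and 1 rose, where 23% and 20.4% of all rows did. Hspd1, or Hsp60, whose barrel folds imported proteins (chromosome 1, 55077835 to 55088243), had 299 and 278.2 CPM after saline, 182.7 and 175.1 after LPS and 164.3 and 201.8 with LGK974. Its fall was 1.61-fold in the endotoxemic group (log2 fold change −0.69, SE 0.19, adjusted p = 0.0168 in edgeR). Hspe1, or Hsp10, the lid of that barrel, is read from the same promoter region in the other direction and had 143.1 and 177.9 CPM after saline and 118 and 149.1 after LPS (adjusted p = 0.336 in edgeR). Hspa9, or mortalin, the Hsp70 that pulls proteins into the matrix, had 332.8 and 359.1 and then 271 and 291.2 CPM (log2 fold change −0.3, SE 0.18, adjusted p = 0.208 in edgeR). Dnajc28 fell from 15.41 and 15.88 to 7.42 and 7.355 CPM (adjusted p = 0.0173 in edgeR), and Dnajc11, a protein of the mitochondrial cristae, rose from 17.17 and 20.78 to 38.95 and 37.41 (log2 fold change 1.01, adjusted p = 0.0106 in edgeR). The mitochondrial genes summed to 953 and 1005 CPM after saline, 733.8 and 790.2 after LPS and 725.3 and 777.6 with LGK974. The calls of Hspd1 and Dnajc28 were lost when any single control or endotoxemic library was left out (edgeR adjusted p from 0.0764 to 0.12 and from 0.0701 to 0.107). That of Dnajc11 was lost without endotoxemic library 2 (0.0527) or control library 1 (0.0983).

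Of the other partners of these proteins, 31 tested heat shock factors and cochaperones of Hsp70 and Hsp90 had 3 genes that rose and 5 that fell, smaller shares than the 20.4% and 23% of all rows, with a median log2 fold change of −0.09. The Hsp90 cochaperones Fkbp5 and Fkbp4, which act on the glucocorticoid receptor, changed in opposite directions, by 1.76 (SE 0.23, adjusted p = 0.000358 in edgeR) and −3.02 (SE 0.41, adjusted p = 0.000419 in edgeR). Bag3, the partner of Hspb8, rose (1.56, adjusted p = 0.000932 in edgeR), and Bag4, a BAG-domain partner of Hsp70, fell (−1.56, adjusted p = 0.000687 in edgeR). Of 14 subunits of the cytosolic chaperonin TRiC and of prefoldin, 3 rose and 1 fell, a share of rises near the 20.4% of all rows, led by the prefoldin subunits Pfdn4 (1.65) and Vbp1 (1.34) and by the TRiC subunit Tcp1 (−0.71). Of 9 mitochondrial partners, 2 fell and 0 rose (edgeR, 5 at an unadjusted p below 0.05, 0 higher and 2 lower by DESeq2), a share of falls near the 23% of all rows. The largest fall was that of Grpel2 (−1.55), an exchange factor of Hspa9, followed by Clpx (−1.05), the unfoldase of the ClpXP protease.

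The second comparison asks how the LGK974 group, which also received LPS, stood against LPS alone. It shares the endotoxemic libraries with the first comparison, so that a deviation of those libraries moves both. Hspb6 and Dnajb4, which were low in the endotoxemic group, were higher in the LGK974 group, and Hsph1, which was high there, was lower. No other chaperone gene passed the test. Of the 61 genes, 2 were higher (3.28%), against 2.8% of all rows, and 1 was lower (1.64%), against 2.82% of all rows. Both counts were 0 without either endotoxemic library, the first was also 0 without either control library and 4 without LGK974 library 1, and the second was 5 without either LGK974 library. In either direction these are 3 genes, where 5.62% of all rows were called. At an unadjusted p below 0.05 there were 14 genes, and the median log2 fold change was −0.17, against 0.03 for all rows.

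Hsph1 had 37.21 and 48.93 CPM after LPS and 13.13 and 18.47 with LGK974, both of which lie below the control values of 22 and 26.34. It was 2.72-fold lower in the LGK974 group (log2 fold change −1.44, SE 0.26, adjusted p = 0.017 in edgeR). Hspb6 had 3.928 and 4.37 CPM after LPS and 9.813 and 17.93 with LGK974, where the higher value nears the control values of 21.35 and 18.76. It was 3.34-fold higher in the LGK974 group (log2 fold change 1.74, SE 0.35, adjusted p = 0.0237 in edgeR). Dnajb4 had 8.947 and 7.568 CPM after LPS and 16.68 and 16.71 with LGK974 (2.02-fold, log2 fold change 1.02, SE 0.24, adjusted p = 0.0454 in edgeR). No call of this comparison held under every alternative. Hsph1 was lost without endotoxemic library 1 (0.0643) or 2 (0.174). Hspb6 was lost without endotoxemic library 1 (0.189) or 2 (0.18) and without control library 1 (0.0591) or 2 (0.0587). Dnajb4 was lost without endotoxemic library 1 (0.205) or 2 (0.29) and without control library 1 or 2 (0.105 for each). Each kept its sign throughout.

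**Figure D4:**
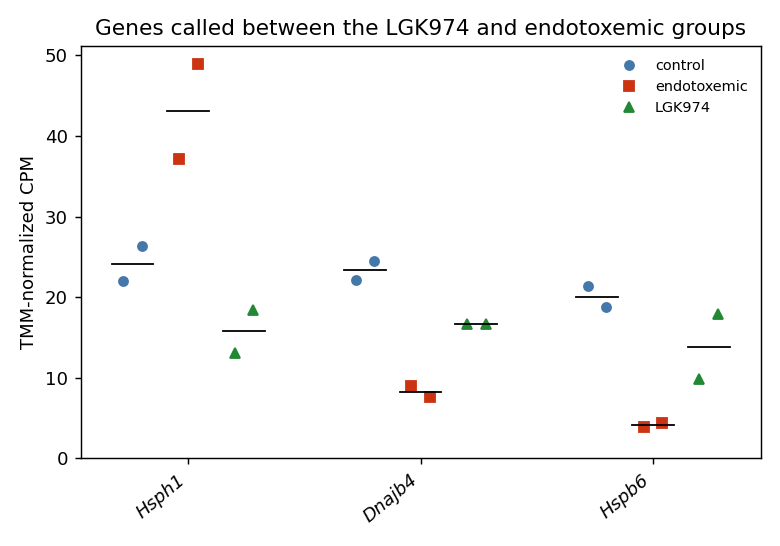
TMM-normalized CPM (y axis, linear from 0) of the 3 chaperone genes called between the LGK974 and endotoxemic groups (x axis) in each library, with circles for the control group, squares for the endotoxemic group, triangles for the LGK974 group and a black line at the mean of the 2 libraries. The triangles of Hsph1 lie below the squares and the circles, and those of Dnajb4 and Hspb6 lie between the squares and the circles.

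Of the 14 ER chaperone genes, 0 passed the test between the LGK974 and endotoxemic groups by edgeR, where 5.62% of all rows did. An unadjusted p below 0.05 was found for 3 of the 14, and DESeq2 called 0 higher and 1 lower. The gene DESeq2 called was Hsp90b1, with 1084 and 1281 CPM with LGK974 against 2152 and 1687 after LPS. Its log2 fold change was −0.7 (SE 0.2, adjusted p = 0.0809 in edgeR), and the adjusted p was 0.0219 by DESeq2 and 0.027 by edgeR without a filter on low counts. Hspa13 had 49.37 and 42.02 CPM with LGK974 (log2 fold change −0.64, SE 0.24, adjusted p = 0.148 in edgeR), below both endotoxemic values. Hspa5 had a log2 fold change of −0.36 (SE 0.28, adjusted p = 0.488 in edgeR) with overlapping groups, and Dnajc10 one of 0.24 (SE 0.2, adjusted p = 0.526 in edgeR). Single libraries changed some of these calls. Without LGK974 library 1, Hspa5 (−0.76, adjusted p = 0.0231 in edgeR) and Hsp90b1 (−0.58, 0.0426) were called lower, and without LGK974 library 2, Hsp90b1 (−0.82, 0.0135) and Dnajc3 (−0.65, 0.0338) were. A log2 fold change that misses the threshold at this spread does not show that the levels were alike. In the list of ER stress regulators and folding factors, Herpud1 was higher (1.35, adjusted p = 0.0154 in edgeR), and Syvn1 (−1.32, adjusted p = 0.0263 in edgeR), the ubiquitin ligase of ER-associated degradation, and Creld2 (−1.31, adjusted p = 0.0121 in edgeR) were lower. In the first comparison, which shares the endotoxemic libraries, the log2 fold changes of Herpud1 and Creld2 were −1.9 and 3.13.

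Hsp90aa1 had a log2 fold change of −0.52 (SE 0.2, adjusted p = 0.158 in edgeR) against LPS alone, with both LGK974 values below both endotoxemic values. Without LGK974 library 1, Hsp90aa1 (−0.69, adjusted p = 0.0163 in edgeR) and Hspa8 (−0.93, 0.00541) were called lower. The values of Hsp90ab1 and of Hspd1 overlapped between these groups. Among the cochaperones of Hsp70 and Hsp90, 0 of 31 genes were called by edgeR, where 5.62% of all rows were. At an unadjusted p below 0.05 there were 5, and DESeq2 called 1 higher and 1 lower. Dnajc12, which works with Hsp70 in folding the aromatic amino acid hydroxylases, had 8.681 and 42.09 CPM within the LGK974 group, a wide spread, and was chosen for mention after its values were seen. It was not called (adjusted p = 0.153 in edgeR).

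The third comparison sets the LGK974 group against the control group and shares the libraries of each with the other comparisons. Hsp90aa1 and 5 ER chaperones were higher, and the mitochondrial Hspd1 was lower. Of the 61 genes, 9 were higher (14.8%), against 16.4% of all rows, and 3 were lower (4.92%), against 17.7% of all rows. The first count was 2 without control library 1 and 6 without control library 2 or endotoxemic library 2, and the second was 0 without either control library, 1 without either endotoxemic library, and 5 and 10 without LGK974 library 1 and 2. In either direction these are 12 genes, where 34.1% of all rows were called. The median log2 fold change was 0.03, against 0.02 for all rows.

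Of the 14 ER genes, 5 rose and 0 fell in edgeR, where 16.4% and 17.7% of all rows did. An unadjusted p below 0.05 was found for 6, and DESeq2 called 5 higher and 0 lower. Dnajc10 had 49.9 and 48.66 CPM with LGK974, above all other libraries, and its log2 fold change of 1.39 (SE 0.21, adjusted p = 0.00101 in edgeR) was the largest of the set. Hspa5 was 2.05-fold higher than in the control group (log2 fold change 1.04, SE 0.28, adjusted p = 0.0194 in edgeR), and Hspa13 was 2.02-fold higher (1.01, SE 0.24, adjusted p = 0.0109 in edgeR). Dnajb9 (0.96, adjusted p = 0.033 in edgeR) and Dnajb11 (0.64, adjusted p = 0.0351 in edgeR) were higher as well. Hsp90b1 (0.33, adjusted p = 0.235 in edgeR) and Dnajc3 (0.44, adjusted p = 0.14 in edgeR) did not pass the test. Without control library 1, Hspa5 (0.0575), Hspa13 (0.117), Dnajb9 (0.231) and Dnajb11 (0.216) were not called, and without control library 2 neither Hspa5 (0.15) nor Dnajb11 (0.125) was. Dnajb9 was also lost without endotoxemic library 2 (0.0619) or LGK974 library 2 (0.0997), and Dnajb11 was called in 1 of the 6 fits that leave out a library.

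In the cytosol, Hsp90aa1 was 3-fold higher than in the control group (log2 fold change 1.59, SE 0.2, adjusted p = 0.000353 in edgeR), and Hspa2, with 10.12 and 7.444 CPM, was 3.7-fold higher (1.89, SE 0.45, adjusted p = 0.0109 in edgeR). Hspbap1, which binds the small heat shock protein Hspb1, rose from 0.8353 and 0.7843 to 4.076 and 2.978 CPM (4.32-fold, log2 fold change 2.11, SE 0.55, adjusted p = 0.017 in edgeR). Its control values rest on 9 and 12 counts. Hspb8 was 1.59-fold higher, with 660.1 and 481.7 CPM with LGK974 (adjusted p = 0.0412 in edgeR), and Bag3 was also higher (log2 fold change 1.29, adjusted p = 0.00346 in edgeR). The genes that fell were Dnaja1 (log2 fold change −0.71, adjusted p = 0.0178 in edgeR), Hspd1 (−0.66, adjusted p = 0.0256 in edgeR) and Dnajc28 (−0.95, adjusted p = 0.0339 in edgeR). Without control library 1, Hspa2 (0.083), Hspbap1 (0.0835) and Dnaja1 (0.107) were not called, and without control library 2 neither Hspbap1 (0.0942) nor Dnaja1 (0.11) was. Hspbap1 was also lost without LGK974 library 1 (0.057). Of the 6 fits that leave out a library, Hspb8 was called in 1 (adjusted p up to 0.254), Hspd1 in 2 (up to 0.167) and Dnajc28 in 1 (up to 0.136). Without LGK974 library 2, Hsph1 (−0.88, 0.0179), Hsp90ab1 (−1.16, 0.000171), Hspb1 (−1.34, 0.00876), Hspe1 (−0.59, 0.0421) and Hspb6 (−1.02, 0.0144) were called lower in edgeR, and without LGK974 library 1, Dnajc3 (0.66, 0.00769) was called higher. With all 6 distinct libraries, Hsp90ab1 (−0.72, 0.0578), Hsph1 (−0.61, 0.0928) and Hspb1 (−0.81, 0.124) did not pass the test in edgeR, although the LGK974 and control values of each did not overlap. Hsp90ab1 was called lower by DESeq2 (0.0362), with no filter on low counts (0.0119) and with the identical libraries kept apart (0.028), Hspb1 with no filter (0.0168) and Hsph1 with the replicate block (0.0433). The log2 fold change of Hspa2 was 1.48 without control library 1 and 2.56 without control library 2. Under every alternative, including the omission of any library, Hsp90aa1 and Dnajc10 were called, and each of the 12 genes called kept its sign.

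The list of ER stress regulators and folding factors had 9 genes that rose and 2 that fell against saline, where 16.4% and 17.7% of all rows did, led by Manf (log2 fold change 2.01) and Creld2 (1.82) upward and by Sil1 (−0.73) and Sel1l (−0.72) downward. In the list of cochaperones of Hsp70 and Hsp90, 2 of 31 rose, a share below that of all rows, and 5 fell, a share near it. Fkbp5 (1.46) and Bag3 (1.29) rose, and Fkbp4 (−3.07) and Chordc1 (−1.3) fell most. In that of TRiC and prefoldin, 3 of 14 rose, a share near that of all rows, and 1 fell, namely Pfdn4 (1.27), Cct3 (0.8) and Cct7 (0.7) against Tcp1 (−1.22). In that of mitochondrial partners, 1 of 9 rose and 4 fell, and the fall of Clpx (−1.85, SE 0.22, adjusted p = 0.000267 in edgeR) was the largest, followed by that of Grpel2 (−0.82), while Grpel1 (0.7) rose.

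The 13 chaperone genes that were not tested had at most 16 counts in any library. Of these, Hspb3, Dnajb7, Dnajb8, Dnajc5b, Dnajc5g and Dnajc6 had 0 counts in all 6 distinct libraries, which is a level below the floor and does not show that the gene is silent. The other 7 were Hspa1l, Hspa12b, Hspb2, Hspb7, Hspb9, Dnajb3 and Dnajb13. Summed over all 74 genes, the chaperone level was 7460 and 6864 CPM after saline, 11262 and 10069 after LPS and 9083 and 8252 with LGK974. The ER set summed to 2998 and 2661 CPM after saline and 6955 and 5693 after LPS. The other 60 genes summed to 4462 and 4203 CPM after saline, 4307 and 4376 after LPS and 3956 and 4095 with LGK974, where saline and LPS overlap. Within these 60, sets moved in opposite directions. After saline and then LPS, the cytosolic Hsp70 genes summed to 225.6 and 236.7 and then 301.9 and 355.3 CPM. The other J-domain genes summed to 300.1 and 328.5 and then 429.7 and 452, and the mitochondrial genes to 953 and 1005 and then 733.8 and 790.2.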

How the data were processed

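Libraries were made from 500 ng of liver RNA with the Lexogen QuantSeq kit. The authors deposited raw counts of reads for each gene, with no normalization. The submitters' processing notes name Bowtie2, edgeR and mm10, without versions, and the counting program and its use of strand are not given in the sources used here. Libraries that repeated another of their group entered once. Counts were analysed with R 4.3.3 and edgeR 4.0.16 (filterByExpr by group, TMM, quasi-likelihood F test, 1 model of 3 groups, common biological coefficient of variation 0.239). P-values were adjusted by Benjamini-Hochberg over 12701 rows at a threshold of 0.05, and SEs were derived from the F statistic. The script was tested on simulated data. The order of rows was compared with RefSeq positions, with rows over 2 Mb from their neighbours called out of order. Promoter windows came from RefSeq, and gene coordinates from GENCODE, both on GRCm38. Depth was 9142116 to 15222439 counts per library. Genes named are a set of well-known chaperones, and in each comparison the 5 largest rises and 5 largest falls among called members without overlap. Every other member named with a value falls outside this rule and was named after its values were seen, which holds for Hspa4, Hspa4l, Hspa14, Dnajc2, Dnajc5, Dnajc7, Dnajc11, Dnajc12, the other genes of the ER set, Dnajc10 in the first 2 comparisons and Hspb6 in the third. Of the other lists, the 2 largest rises and falls were named, and Cct7 in the third comparison was named beyond this rule. Members, roles, lists and motifs were chosen with earlier results of these data known. Alternatives were other filters and normalizations, DESeq2 1.42.0, identical libraries kept apart, a replicate block, only the 2 groups compared, rows out of order left out or reassigned, Rn45s left out, and each library left out. Samples stand in the groups of their labels, and nothing was left out by value.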

Additional observations from a re-analysis of the deposited data

How the results depend on the processing

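Across 18 alternatives (17 for Hspbap1, removed by the filter of at least 10 counts in every library), each of the 20, 3 and 12 genes called in the 3 comparisons kept its sign, and 9, 0 and 2 of them, in the order of the report, were called in every alternative. With the identical endotoxemic libraries kept as separate samples, the first comparison (endotoxemic against control) had 23 chaperone genes higher and 13 lower, the second (LGK974 against endotoxemic) 7 and 10, and the third (LGK974 against control) 7 lower, where the same values enter again by construction. With only the 2 groups compared in the fit, 9 were lower in the first comparison, 0 higher in the second (edgeR, 4 higher at an unadjusted p below 0.05) and 1 lower in the third. In these fits Hspb6 and Dnajb4 were lost in the second comparison, and Hspb8, Dnajb9, Hspd1 and Dnajc28 in the third. Without a filter on low counts, 2 were lower in the second comparison and 6 in the third, and by DESeq2 these were 2 and 5. Leaving out 1 library at a time gave 7 to 20 higher and 2 to 9 lower in the first comparison, 0 to 4 higher and 0 to 5 lower in the second, and 2 to 12 higher and 0 to 10 lower in the third. Where these fits leave a group with 1 library, it is assumed to vary like the other groups, and the cause of the other shifts was not tested.

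Same-numbered libraries of the groups share only a number, since their deviations had correlations of 0.14, 0.0605 and −0.00749. With the replicate number as a block, 17 were higher and 5 lower in the first comparison, 1 higher and 1 lower in the second, where Dnajb4 was lost (adjusted p = 0.055), and 10 higher and 4 lower in the third. The log2 fold change of Hspa1a after LPS, a gene with few counts, had an SE of 1.08, and the part of depth in it was not tested.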
